A study of Mus musculus with 36 samples.

Results

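HPC-1 from angiotensin II (Ang II)-infused *Apoe*-/-*Il27ra*-/- mice were compared with HPC-1 from Ang II-infused *Apoe*-/-*Il27ra*+/- mice. The deposited labels give 4 libraries of each genotype, which are 8 of the 36 libraries in the series. The comparison asks how, under Ang II, the RNA of these progenitors differs between mice with 0 and mice with 1 functional copy of *Il27ra*, which encodes the α chain of the IL-27 receptor (IL-27R). HPC-1 are progenitors of the bone marrow (BM) that were sorted by flow cytometry as lineage-negative cells with Sca-1, c-Kit and CD48 but without CD150, and the labels call them ST-HSC. In both groups the mice had a C57BL/6 background, lacked apolipoprotein E and ate Western diet (WD) for 12 weeks, and an osmotic mini-pump gave Ang II (800 ng per kg per min) during the last 2 weeks. A sample held 5000 sorted cells, whose total RNA was sequenced with a stranded low-input kit. The study used male and female mice, and the labels give no gender, age or batch. The labels do not state that each library came from a separate mouse, and a supplementary legend of the paper gives 4 *Il27ra*+/- but 3 *Il27ra*-/- mice, so the p-values below measure only the spread between these samples, which may be technical.

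IL-27 is a cytokine of the IL-12 family that consists of the p28 and EBI3 chains and is made mainly by myeloid cells. Its receptor pairs IL-27Rα with gp130, the signalling chain shared with IL-6, and acts through JAK kinases on STAT transcription factors such as STAT3, which in turn induce interferon-type genes and SOCS inhibitors. Hematopoietic stem and progenitor cells carry this receptor, and IL-27 is known to affect their proliferation and their output of myeloid cells.

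Total counts in *Il27ra*+/- HPC-1 were 2618919, 2349391, 2272026 and 6318379 in replicates 1 to 4. In *Il27ra*-/- HPC-1 they were 3523523, 2857301, 3722262 and 5212330. Replicate 4 of either genotype was thus its deepest library and the only one above 4000000 counts. Replicate 4 also stood apart in sex-linked RNA. *Xist*, the noncoding RNA of the inactive X chromosome, was at 3380 and 3630 CPM (counts relative to the library total, which was scaled by TMM) in replicate 4 of the *Il27ra*+/- and *Il27ra*-/- groups and at 0.342 to 5.65 CPM in the other 6 libraries, whereas Y-linked *Ddx3y* was at 0 in both replicates 4 and at 52.9 to 100 CPM in the others. *Gm42418*, a locus with ribosomal RNA or other abundant noncoding reads, was at 6660 and 9250 CPM in replicate 4 of *Il27ra*+/- and *Il27ra*-/-. In the other 6 libraries it was at 26500 to 73900 CPM. Depth, sex-linked RNA and the level of *Gm42418* cannot be told apart among these libraries, but both genotypes hold 1 such library. Values over the 6 libraries under 4000000 counts are therefore given beside the main ones. Across genes, the log2 CPM of library pairs correlated with a Pearson r of 0.865 to 0.951 within *Il27ra*+/-, 0.903 to 0.971 within *Il27ra*-/- and 0.864 to 0.976 between the genotypes. The median r with the other 7 libraries was lowest in *Il27ra*+/- replicate 3 (0.893), *Il27ra*-/- replicate 2 (0.905) and *Il27ra*+/- replicate 1 (0.912).

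The sorting gate was visible in the RNA. On a scale common to both cell types, *Cd48* was at 45.2 to 85.6 CPM in the 8 HPC-1 libraries and at 0 to 8.2 CPM in the 8 libraries of long-term HSC (LT-HSC) of the same genotypes and infusion. *Slamf1*, the gene of CD150, was at 0 to 3.18 CPM in HPC-1 and at 20.7 to 73.8 CPM in LT-HSC. *Ly6a*, the gene of Sca-1, was at only 1.82 to 14.6 CPM in HPC-1, against 9.36 to 16.3 CPM in LT-HSC.

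*Il27ra* itself (ENSMUSG00000005465, mm10 chromosome 8, 84030294 to 84042589, minus strand) was at 5.22, 9.19, 13.9 and 15.6 CPM in *Il27ra*+/- and at 6.35, 5.81, 4.38 and 8.57 CPM in *Il27ra*-/- HPC-1. The groups overlapped, because the library labelled *Il27ra*+/- replicate 1 lay within the range of the *Il27ra*-/- libraries, while *Il27ra*+/- replicates 2, 3 and 4 lay above it. These levels rest on 12 counts in *Il27ra*+/- replicate 1 and on 16 to 102 counts in the other libraries. The log2 fold change (*Il27ra*-/- minus *Il27ra*+/-) was −0.81 (SE 0.428, 95% confidence interval −1.69 to 0.071, unadjusted p = 0.0699 by edgeR, 0.0464 by DESeq2 and 0.0112 by limma-voom), and −0.78 over the libraries under 4000000 counts. In LT-HSC after Ang II *Il27ra* was at 30.2, 25.5, 27.1 and 32.8 CPM in *Il27ra*+/- and at 16.3, 11.7, 16.2 and 19.3 CPM in *Il27ra*-/-. There the groups lay apart (log2 fold change −0.86, unadjusted p = 0.012 by edgeR). In HPC-1 after PBS they overlapped, at 14.9, 10.7 and 9.59 CPM in *Il27ra*+/- and at 6.5, 10.7 and 7.94 CPM in *Il27ra*-/-. The log2 fold change there was −0.48 (unadjusted p = 0.332 by edgeR). HPC-1 of Ang II-infused mice with intact *Il27ra* were at 9.88, 8.59 and 6.02 CPM, which reached into the range of *Il27ra*-/- HPC-1 after Ang II. The count covers the whole gene. Which exons the mutant allele lacks is not given in the sources used here, so RNA of the remaining exons would be counted as *Il27ra*.

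The partner chain, the kinases and the transcription factors downstream are given next. Of the 15 tested genes of the receptor and its JAK-STAT pathway, 0 had an adjusted p under 0.05. At an unadjusted p under 0.05 there were 0 by edgeR, 1 by DESeq2 and 2 by limma-voom (of all genes 2.84%, 3.41% and 4.66%), and the median log2 fold change was −0.05 (−0.01 over all 13199 genes tested). *Stat3* was at 170, 190, 251 and 236 CPM in *Il27ra*+/- and at 193, 178, 168 and 262 CPM in *Il27ra*-/-, and each group held both low and high libraries. The 95% confidence intervals of the log2 fold changes were −0.44 to 0.28 for *Stat3*, −0.40 to 0.21 for *Jak1* and −0.46 to 0.25 for *Il6st*, the gene of gp130. A p that misses the threshold does not show that the genotypes did not differ in these genes, but each of these intervals lay within 2-fold in either direction. *Socs3*, a feedback inhibitor that STAT3 induces, was at 20.4, 10.5, 16.5 and 21.4 CPM in *Il27ra*+/- and at 3.04, 21.5, 12.9 and 8.94 CPM in *Il27ra*-/-. The groups overlapped, and the interval of its log2 fold change was wide, from −1.86 to 0.69 (unadjusted p = 0.354 by edgeR and 0.0127 by limma-voom). *Ebi3*, a chain of IL-27 itself, was at 0, 3.5, 0.422 and 3.67 CPM in *Il27ra*+/- and at 7.45, 5.47, 1.64 and 6.52 CPM in *Il27ra*-/-, with 1 *Il27ra*-/- library inside the *Il27ra*+/- range.

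Across the transcriptome, edgeR called 0 of 13199 genes at an adjusted p under 0.05 (0%), as did DESeq2 and limma-voom. At an unadjusted p under 0.05 there were 375 genes (2.84%) by edgeR, 449 by DESeq2 and 615 by limma-voom. By edgeR, 201 of the 375 (1.52% of all genes) had a higher and 174 (1.32%) a lower estimate in *Il27ra*-/-. Which direction held more genes depended on the setting, with 183 higher and 191 lower with RLE size factors and 270 and 345 by limma-voom. The count also depended on single libraries. It was 668 without *Il27ra*+/- replicate 4 and 160 without *Il27ra*-/- replicate 2. Without *Il27ra*+/- replicate 1 alone the count was 372, but only 173 of the 375 genes were among them. Without *Il27ra*+/- replicate 3 alone it was 355, with 153 of the 375 among them. When *Il27ra*+/- replicates 1 and 3 were both omitted, a choice made after seeing the data, it was 187, and 62 of the 375 genes were among those. Over the libraries under 4000000 counts it was 530. In 170 genes (1.29%) all 4 *Il27ra*-/- libraries lay above all 4 *Il27ra*+/- libraries, and in 104 (0.788%) they lay below. Without TMM normalization these numbers were 211 and 78, so that the share of *Il27ra*-/- above was 73% in place of 62%. The 95% confidence interval of the fold change lay within 2-fold in either direction for 56.4% of the genes, for 96.2% of those with a mean of 100 CPM or more, for 74.5% at 10 to 100 CPM and for 0.987% at 1 to 10 CPM. No gene named below passed the adjustment in the main fit, so their levels and estimates are given as descriptions.

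**Figure D1:**
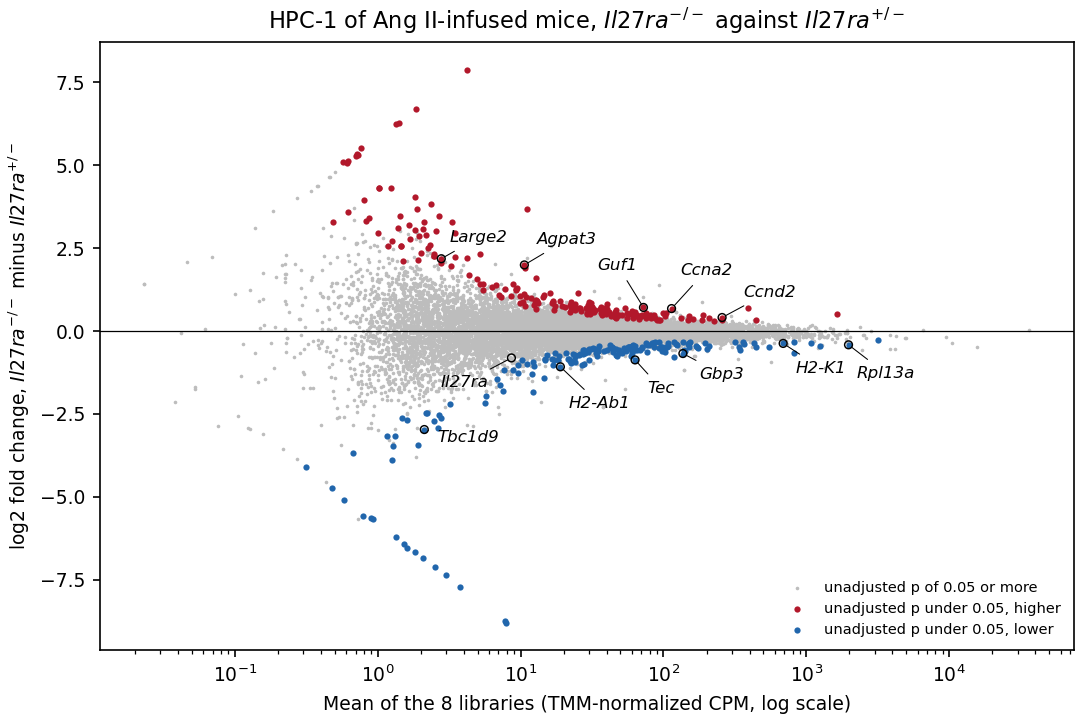
Log2 fold change of each tested gene (*Il27ra*-/- minus *Il27ra*+/-, vertical axis) against its mean over the 8 HPC-1 libraries (TMM-normalized CPM, log scale), with the 375 genes at an unadjusted p under 0.05 in red (higher) or blue (lower) and 12 genes named in the text circled. Fold changes spread most widely at low levels, and no gene passed the adjustment.

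The smallest p belonged to *Tec*, the founding member of the Tec family of tyrosine kinases, which act below antigen and cytokine receptors. *Tec* was at 97.4, 57.3, 110 and 62.6 CPM in *Il27ra*+/- and at 50.5, 41.4, 44.4 and 42.3 CPM in *Il27ra*-/-. All *Il27ra*-/- libraries were close together and below the *Il27ra*+/- libraries, of which replicates 1 and 3 were high and replicates 2 and 4 only slightly above *Il27ra*-/-. The log2 fold change was −0.87 (SE 0.197, unadjusted p = 0.00017, adjusted p = 1 by edgeR), and −0.44 when *Il27ra*+/- replicates 1 and 3 were both omitted. *Prkcq*, which encodes protein kinase C theta of lymphocyte receptor signalling, was at 30.4, 39.4, 53.6 and 33.1 CPM in *Il27ra*+/- and at 24.8, 10.9, 21.4 and 27.2 CPM in *Il27ra*-/-. Again all of the *Il27ra*-/- libraries lay below, by a narrow gap. *Il15*, a cytokine that sustains NK cells and memory T cells, was at 12.6, 13.1, 30.4 and 12.2 CPM in *Il27ra*+/- and at 8.28, 4.1, 6.85 and 8.2 CPM in *Il27ra*-/-. *Il27ra*+/- replicate 3 was far above the rest of its group, and the log2 fold change was −1.29 (SE 0.403, unadjusted p = 0.0036 by edgeR). *Map7d1*, a microtubule-associated protein, was at 208, 161, 160 and 140 CPM in *Il27ra*+/- and at 104, 84.1, 121 and 138 CPM in *Il27ra*-/-, so that replicates 4 of both groups nearly met. *Syf2*, a factor of the spliceosome, was at 158, 111, 117 and 83.1 CPM in *Il27ra*+/- and at 77.6, 78.6, 76.2 and 77.3 CPM in *Il27ra*-/-. The *Il27ra*-/- libraries were nearly equal, and the spread was all in *Il27ra*+/-. *Slc9a3r1*, a scaffold protein under the plasma membrane, was at 127, 107, 104 and 107 CPM in *Il27ra*+/- and at 70.7, 73.1, 74.8 and 101 CPM in *Il27ra*-/-, where replicate 4 alone came close to *Il27ra*+/-. The other genes of lowest p with *Il27ra*-/- below were *Psd3*, an exchange factor of ARF GTPases (log2 fold change −0.75), *Tbc1d9* of the Rab GTPase-activating family (−2.97, from 0 to 8.75 CPM), *H2-Ab1* and *Gbp3*. *Psd3* was at 127 CPM in *Il27ra*+/- replicate 3, at 51.3 to 64.4 CPM in the other *Il27ra*+/- libraries and at 40.1 to 48.3 CPM in *Il27ra*-/-.

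Among genes with all *Il27ra*-/- libraries above, *Guf1*, a GTPase of mitochondrial translation, had the smallest p. *Guf1* was at 49.1, 42, 63.7 and 64 CPM in *Il27ra*+/- and at 91.9, 107, 88.8 and 73 CPM in *Il27ra*-/- (log2 fold change 0.71, SE 0.183, unadjusted p = 0.000644, adjusted p = 1 by edgeR). The gap was narrowest between replicates 4, and over the libraries under 4000000 counts the log2 fold change was 0.89. *Mrpl19*, a protein of the mitochondrial ribosome, was at 23.1, 31.1, 19 and 36.1 CPM in *Il27ra*+/- and at 41.1, 49.9, 49.3 and 40.6 CPM in *Il27ra*-/-. Its groups lay apart by a narrow margin. *Aptx*, whose product aprataxin mends DNA strand breaks, was at 19.1, 17.1, 13.5 and 20.3 CPM in *Il27ra*+/- and at 32.9, 31.4, 26.9 and 28.1 CPM in *Il27ra*-/-, a clear gap with little spread in either group (log2 fold change 0.76, SE 0.248). *Capza2*, a subunit of the actin capping protein, was at 170, 188, 183 and 176 CPM in *Il27ra*+/- and at 249, 225, 273 and 200 CPM in *Il27ra*-/-. *Il27ra*+/- libraries were nearly equal here, and *Il27ra*-/- replicate 4 was the nearest to them. *Agpat3*, an acyltransferase of phospholipid synthesis, was at 3.04, 8.31, 0.422 and 5.04 CPM in *Il27ra*+/- and at 16.8, 29, 11 and 11.4 CPM in *Il27ra*-/-, with all *Il27ra*-/- libraries above. *Pik3c2a*, a class II phosphoinositide 3-kinase, had a log2 fold change of 0.77. *Large2*, a glycosyltransferase of dystroglycan, was at 0.422 to 2.19 CPM in *Il27ra*+/- and at 3.01 to 6.15 CPM in *Il27ra*-/-, near the limit of 3 counts in several libraries. *Reps1*, a protein of endocytosis, and *Fam69a* had log2 fold changes of 0.58 and 1.04.

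**Figure D2:**
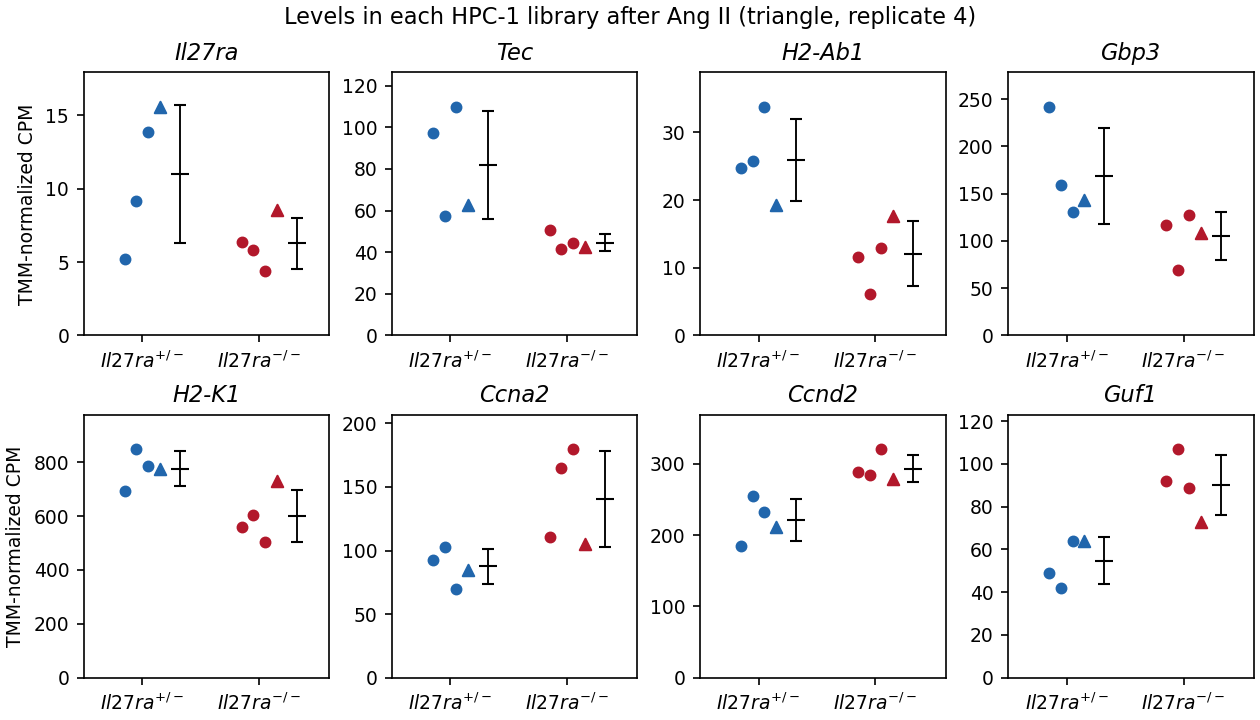
TMM-normalized CPM of 8 genes in each HPC-1 library after Ang II (blue, *Il27ra*+/-; red, *Il27ra*-/-; triangles, replicate 4), with the mean and SD of 4 libraries beside the points. *Il27ra* and *H2-K1* overlapped between the genotypes, and *Tec*, *H2-Ab1*, *Gbp3*, *Ccna2*, *Ccnd2* and *Guf1* did not.

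Interferon-induced and antigen presentation genes are known to respond to JAK-STAT signalling. *H2-Ab1*, the β chain of the MHC class II molecule I-A, was at 24.8, 25.8, 33.8 and 19.2 CPM in *Il27ra*+/- and at 11.6, 6.15, 12.9 and 17.7 CPM in *Il27ra*-/-. All *Il27ra*-/- libraries lay below, with replicates 4 nearly meeting, and the log2 fold change was −1.08 (SE 0.32, interval −1.74 to −0.42, unadjusted p = 0.00245 by edgeR) and −1.45 over the libraries under 4000000 counts. The 6 tested MHC class II genes had no common direction, with 3 estimates above 0 and 3 below. *Gbp3*, a guanylate-binding GTPase induced by interferon-γ, was at 242, 159, 130 and 143 CPM in *Il27ra*+/- and at 117, 68.7, 127 and 108 CPM in *Il27ra*-/-. The groups came closest at replicate 3 of each, and the log2 fold change was −0.68 (SE 0.228, interval −1.15 to −0.21, unadjusted p = 0.00659 by edgeR). The 14 tested genes of a list of interferon-γ-induced GTPases, *Irf1* and related genes had 10 estimates below 0 and 4 above, a median log2 fold change of −0.18 and 1 gene (7.14%) at an unadjusted p under 0.05 with a lower estimate, against 1.32% of all genes. The CPM of all 17 genes of this list, with *Irf8* at the highest mean, summed to 1090, 1000, 1170 and 1030 in *Il27ra*+/- and to 949, 874, 855 and 969 in *Il27ra*-/-. Every *Il27ra*-/- sum was below every *Il27ra*+/- sum. *Gbp3*, whose groups already lay apart, is part of the sum, so the separation cannot be credited to the list as a whole. The median of the list was −0.25 over the libraries under 4000000 counts but −0.05 without *Il27ra*+/- replicate 3, which had the highest *Iigp1*, *Irgm1* and *Gbp2*. Also *Gbp2b*, named after its values were seen, had a log2 fold change of −0.53 (unadjusted p = 0.0413 by edgeR).

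The classical class I gene *H2-K1* was at 693, 850, 788 and 774 CPM in *Il27ra*+/- and at 560, 605, 504 and 729 CPM in *Il27ra*-/-. Only *Il27ra*-/- replicate 4 reached the *Il27ra*+/- range, and the log2 fold change was −0.37 (SE 0.135, unadjusted p = 0.0104 by edgeR) and −0.49 over the libraries under 4000000 counts. *H2-D1* is a close relative of *H2-K1*, so that reads may be divided between them with error, and it had a log2 fold change of −0.30. *B2m*, the light chain that these molecules need at the surface, was at 411, 566, 675 and 533 CPM in *Il27ra*+/- and at 530, 575, 536 and 504 CPM in *Il27ra*-/-, within the same range. Of the 11 genes of class I presentation 10 had an estimate below 0 (median −0.19), among them the peptide transporter genes *Tap1* (−0.31) and *Tap2* (−0.17) and the immunoproteasome genes *Psmb8* (−0.24) and *Psmb9* (−0.12). The sum over these 11 genes was 2830, 3330, 3010 and 3190 CPM in *Il27ra*+/- and 2450, 2550, 2510 and 2990 CPM in *Il27ra*-/-, with replicate 4 of *Il27ra*-/- alone inside the *Il27ra*+/- range. Among the 36 type I interferon-stimulated genes, 22 estimates were below 0 and 14 above, 0 had an unadjusted p under 0.05 by edgeR and 1 by limma-voom (of all genes 2.84% and 4.66%), and the median of −0.05 turned to 0.08 without *Il27ra*+/- replicate 4 and to 0.03 over the libraries under 4000000 counts. The nonclassical class I gene *H2-Q6*, named after its values were seen, was at 100, 132, 170 and 95.6 CPM in *Il27ra*+/- and at 82.3, 76.2, 64.9 and 98.2 CPM in *Il27ra*-/- (log2 fold change −0.62, unadjusted p = 0.00339 by edgeR). *Il27ra*-/- replicate 4 exceeded the lowest *Il27ra*+/- library. *H2-Q6* and its neighbor *H2-Q7* are nearly identical in sequence, so that the division of reads between them is uncertain. *H2-Q7* was at 79.2, 111, 173 and 122 CPM in *Il27ra*+/- and at 78.4, 113, 68.5 and 145 CPM in *Il27ra*-/-, which overlapped (log2 fold change −0.26, unadjusted p = 0.249 by edgeR).

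Promoters of these genes were searched on both strands, in the RefSeq sequences from 250 bases before to 50 bases after each start (GRCm38.p6), for TTCNNNGAA, the letters bound by dimers of STAT proteins, and for GAAANNGAA, the core of the interferon-stimulated response element. Of 27025 genes with a promoter, 9.55% held the former and 9.76% the latter. Among 12 of the 14 interferon-γ GTPase genes with a promoter, 7 (58.3%) held TTCNNNGAA and 9 (75%) GAAANNGAA. Of 27 type I interferon-stimulated genes 7 (25.9%) held TTCNNNGAA and 15 (55.6%) GAAANNGAA. Of 10 class I presentation genes, 1 held TTCNNNGAA and 2 held GAAANNGAA, and of 3 class II genes 0 held either. The promoter of *Gbp3* (chr3:142559794-142560093, plus strand) is shown because *Gbp3* had the smallest p of the list, and a second *Gbp3* promoter in the table held neither. Capitals mark a pair of overlapping GAAANNGAA matches, both on the minus strand, which are a description of the letters and not of a bound site.
*Gbp3*: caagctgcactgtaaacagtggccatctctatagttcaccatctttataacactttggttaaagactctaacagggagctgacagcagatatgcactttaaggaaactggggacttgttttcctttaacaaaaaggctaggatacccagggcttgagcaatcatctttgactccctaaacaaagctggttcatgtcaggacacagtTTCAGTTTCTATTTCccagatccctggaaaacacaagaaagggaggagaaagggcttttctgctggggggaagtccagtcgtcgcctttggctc

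Genes of mitosis and of replication had mostly higher estimates in *Il27ra*-/-, while replication-dependent histone genes and cyclin-dependent kinase inhibitors did not. *Ccna2*, the cyclin of S and G2 phase, was at 92.6, 103, 70.1 and 84.6 CPM in *Il27ra*+/- and at 111, 165, 180 and 105 CPM in *Il27ra*-/-. Replicates 2 and 3 of *Il27ra*-/- were high, and replicates 1 and 4 lay just above *Il27ra*+/- (log2 fold change 0.68, SE 0.189, unadjusted p = 0.00141 by edgeR). The kinase of the spindle checkpoint *Bub1* was at 43.9, 24.9, 19.8 and 30.6 CPM in *Il27ra*+/- and at 41.7, 65.6, 54.5 and 33.2 CPM in *Il27ra*-/-, with *Il27ra*+/- replicate 1 inside the *Il27ra*-/- range. Of 24 tested genes of mitosis 21 had an estimate above 0, and 3 (12.5%), *Ccna2*, *Bub1* and *Aurkb*, had an unadjusted p under 0.05 with a higher estimate, against 1.52% of all genes. The median was 0.22, and it ranged from 0.06 without *Il27ra*+/- replicate 4 to 0.38 when *Il27ra*+/- replicates 1 and 3 were omitted. *Mki67*, the proliferation marker Ki-67, was at 3060, 2050, 2630 and 1340 CPM in *Il27ra*+/- and at 2040, 3750, 2720 and 1450 CPM in *Il27ra*-/-. Replicate 4 was lowest in both groups, and the groups overlapped. Of 25 genes of replication 22 had an estimate above 0 with a median of 0.11, which was nearly 0 (0.00185) without *Il27ra*+/- replicate 3, the library with the lowest *Mcm3*, *Mcm5*, *Rrm1* and *Tyms*. *Rrm2*, a subunit of ribonucleotide reductase, was at 60.9, 62.1, 60.8 and 59.1 CPM in *Il27ra*+/- and at 89.7, 97.1, 116 and 53.9 CPM in *Il27ra*-/-. *Il27ra*-/- replicate 4 was below all *Il27ra*+/- libraries, and the other *Il27ra*-/- libraries were above them. Among replication-dependent histone genes, which serve S phase and mostly lack a poly(A) tail, 40 of 57 estimates were below 0 (median −0.08), and 2 (3.51%) had an unadjusted p under 0.05, both lower, against 1.32% of all genes. A list of 8 tested genes held cyclin-dependent kinase inhibitors and the retinoblastoma-family genes *Rb1*, *Rbl1* and *Rbl2*. In it 3 genes had an estimate above 0 and 5 below (median −0.03). Those above 0 were *Rbl1* (0.21), *Rbl2* (0.06) and, as the only inhibitor, *Cdkn1a* (0.14).

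Of 13 genes of G1 and the Myc network 8 had an estimate above 0, among them the D-type cyclins, which drive entry into the cycle. *Ccnd2* was at 185, 255, 233 and 211 CPM in *Il27ra*+/- and at 289, 284, 321 and 278 CPM in *Il27ra*-/-, with all *Il27ra*-/- libraries above (log2 fold change 0.41, SE 0.146, unadjusted p = 0.00989 by edgeR). *Ccnd1* was at 10.9, 38.9, 22.8 and 16.2 CPM in *Il27ra*+/- and at 29.3, 44.8, 35.3 and 33.5 CPM in *Il27ra*-/-. *Il27ra*+/- replicate 2 lay within the *Il27ra*-/- range. *Ccnd3* was at 55.7, 85.3, 41.4 and 107 CPM in *Il27ra*+/- and at 79, 115, 84.7 and 97.5 CPM in *Il27ra*-/-, which overlapped (log2 fold change 0.37, unadjusted p = 0.102 by edgeR). *Myc* was at 293, 444, 430 and 511 CPM in *Il27ra*+/- and at 410, 528, 427 and 508 CPM in *Il27ra*-/-, where *Il27ra*+/- replicate 1 was lowest and the other libraries of both genotypes overlapped. The median of the 13 genes was 0.10, and −0.03 without *Il27ra*+/- replicate 1. *Trp53* was at 129 to 155 CPM in *Il27ra*+/- and at 135 to 147 CPM in *Il27ra*-/-, and its interval of −0.29 to 0.26 was among the narrower ones. The cycle inhibitor *Cdkn1a* was at 4.22 to 11.4 CPM and 4.14 to 10.2 CPM in the same order, from 10 to 55 counts per library. Its interval was wide, from −0.88 to 1.17, so these values leave the size and direction of a difference undecided.

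Genes of myeloid progenitors had mostly lower estimates, 19 of 22 below 0, with a median log2 fold change of −0.28. By edgeR 0 of them had an unadjusted p under 0.05, against 2.84% of all genes. Bulk RNA cannot tell fewer cells of a type from less RNA per cell. *Mpo*, the peroxidase of neutrophil granules that is made from the progenitor stage, was at 5800, 5500, 5510 and 4540 CPM in *Il27ra*+/- and at 4950, 4430, 5710 and 3190 CPM in *Il27ra*-/-. Its lowest library in each group was replicate 4, and *Il27ra*-/- replicates 1 and 3 were within the *Il27ra*+/- range. *Cebpa*, the transcription factor that commits cells to the granulocyte and monocyte lineage, was at 111, 128, 101 and 152 CPM in *Il27ra*+/- and at 80.3, 68, 105 and 103 CPM in *Il27ra*-/-, with the groups overlapping between 101 and 105 CPM. The log2 fold changes were −0.42 for *Prtn3*, −0.35 for *Ctsg* and −0.27 for *Elane*, which encode granule proteases. The median of the list ranged from −0.40 without *Il27ra*-/- replicate 3 to −0.14 when *Il27ra*+/- replicates 1 and 3 were omitted, and was −0.30 over the libraries under 4000000 counts. *Csf3r*, the G-CSF receptor, was at 111, 148, 353 and 229 CPM in *Il27ra*+/- and at 156, 155, 149 and 232 CPM in *Il27ra*-/-, and *Il3ra*, the α chain of the IL-3 receptor, at 13.5, 11.4, 20.3 and 16.7 CPM and at 12.1, 2.39, 7.4 and 17.3 CPM. Both genes overlapped between the genotypes.

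Lymphoid priming genes leaned the other way, with 14 of 21 estimates above 0, a median of 0.24 and 2 genes (9.52%) at an unadjusted p under 0.05, both with a higher estimate, against 1.52% of all genes. *Il7r*, the receptor that common lymphoid progenitors depend on, was at 0, 2.19, 0.844 and 1.22 CPM in *Il27ra*+/- and at 6.63, 2.73, 1.92 and 6.71 CPM in *Il27ra*-/-. These levels rest on 0 to 8 counts in *Il27ra*+/- and on 7 to 36 in *Il27ra*-/- libraries, and *Il27ra*-/- replicate 3 lay inside the *Il27ra*+/- range. The unadjusted p of *Il7r* was 0.0396 by edgeR, 0.013 by DESeq2 and 0.0247 by limma-voom. *Notch1*, which directs progenitors to the T lineage, was at 106, 187, 184 and 159 CPM in *Il27ra*+/- and at 192, 271, 119 and 302 CPM in *Il27ra*-/-, with replicate 3 of *Il27ra*-/- low. Its unadjusted p was at the limit by edgeR (0.0498) and missed it by DESeq2 (0.0527) and limma-voom (0.361). *Dntt*, the terminal transferase of lymphoid progenitors, was at 59.6, 246, 116 and 104 CPM in *Il27ra*+/- and at 215, 328, 118 and 307 CPM in *Il27ra*-/-, which also overlapped. The median was 0.10 without *Il27ra*+/- replicate 1 and 0.09 over the libraries under 4000000 counts. Among 20 tested genes of stem cell identity 16 had an estimate below 0 (median −0.10). In this list *Meis1* and *Gata2* had intervals of −0.33 to 0.35 and −0.44 to 0.39. The surface marker genes *Kit* and *Cd34* had intervals of −0.44 to 0.32 and −0.22 to 0.49.

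Of 76 tested genes of cytosolic ribosomal proteins 63 had an estimate below 0 (median −0.11), and 6 (7.89%) had an unadjusted p under 0.05, all lower, against 1.32% of all genes. *Rpl13a* was at 2930, 2580, 1680 and 1810 CPM in *Il27ra*+/- and at 1570, 1590, 1650 and 1950 CPM in *Il27ra*-/-. *Il27ra*+/- replicates 1 and 2 were high, and replicates 3 and 4 lay at the level of *Il27ra*-/-. The sum over the ribosomal proteins was 61000, 69600, 54700 and 58600 CPM in *Il27ra*+/- and 53000, 52800, 54600 and 57200 CPM in *Il27ra*-/-, and the median log2 fold change was −0.06 without *Il27ra*+/- replicate 2. Immediate early genes such as *Jun* and *Fos*, which cells switch on within minutes of a stimulus or of handling, had 13 of 16 estimates below 0 (median −0.27). *Jun* was at 66.1, 192, 416 and 299 CPM in *Il27ra*+/- and at 119, 219, 148 and 155 CPM in *Il27ra*-/-. *Il27ra*+/- alone spanned the range of both groups, and the median of the list was −0.03 without *Il27ra*+/- replicate 3 and −0.58 without *Il27ra*+/- replicate 1. Of 21 genes of cholesterol synthesis and transport 17 had an estimate below 0 (median −0.20). *Atp6ap2*, the prorenin receptor and a part of the proton pump, was at 11.3, 24.1, 21.9 and 30.7 CPM in *Il27ra*+/- and at 45, 42.7, 50.4 and 23.3 CPM in *Il27ra*-/-, where replicate 4 alone lay in the *Il27ra*+/- range.

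**Figure D3:**
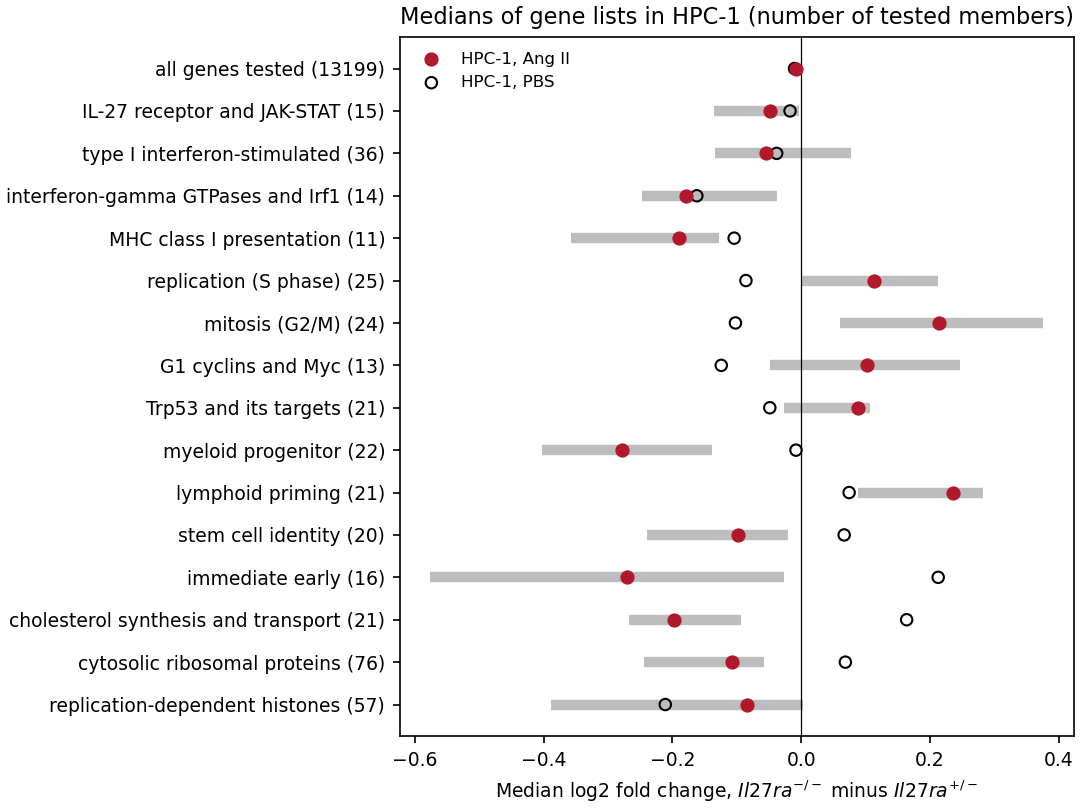
Median log2 fold change (*Il27ra*-/- minus *Il27ra*+/-, horizontal axis) of 15 gene lists and of all 13199 tested genes in HPC-1 after Ang II (red) and after PBS (open circles), with the number of tested members in parentheses. Grey bars span the median after Ang II under 22 alternative settings, and the median of mitosis genes lay above 0 after Ang II (0.22) and below 0 after PBS (−0.10).

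Markers of mature blood cells differed between single *Il27ra*-/- libraries. The 10 neutrophil genes summed to 55.7, 11.8, 68.8 and 17.1 CPM in *Il27ra*+/- and to 39.5, 83.4, 252 and 8.38 CPM in *Il27ra*-/-, with *Cxcr2* at the highest mean CPM of the list. *Cxcr2*, a chemokine receptor, was at 23.9, 8.31, 32.5 and 15.1 CPM in *Il27ra*+/- and at 16.3, 17.8, 12.9 and 6.71 CPM in *Il27ra*-/-, which overlapped, with a lower estimate in *Il27ra*-/-. Of the 8 tested neutrophil genes 6 had an estimate above 0 and 2 below. By edgeR 3 (37.5%) had an unadjusted p under 0.05, all higher, against 1.52% of all genes. These were *Camp*, *Ngp* and *S100a8*, with an unadjusted p of 0.00373, 0.0283 and 0.0271 by DESeq2 but of 0.123, 0.119 and 0.161 by limma-voom. The median log2 fold change of the 8 genes was 2.14, and it ranged from 0.17 to 4.6 over 22 alternative settings. In the sum *Il27ra*-/- replicate 3 was highest and *Il27ra*-/- replicate 4 lowest of all. The granule protein gene *Camp* was at 0 in all 4 *Il27ra*+/- libraries and at 0.552, 1.71, 8.49 and 0 CPM in *Il27ra*-/-, and *Ngp* was at 5.22, 0, 1.69 and 0 CPM and at 4.42, 21.9, 55.1 and 0 CPM. The 8 genes of eosinophils, mast cells and basophils summed to 39.1, 35.4, 66.7 and 51.2 CPM in *Il27ra*+/- and to 41.4, 75.2, 64.7 and 29.3 CPM in *Il27ra*-/-, with *Cpa3* at the highest mean CPM. In that list *Prg2* and *Epx*, both eosinophil granule proteins, were at 0 in all *Il27ra*+/- libraries and at 12.3 and 8.54 CPM in *Il27ra*-/- replicate 2. Of its 6 tested members 4 had an estimate above 0 and 2 below (median 0.78, from −0.33 to 2.51 over 22 alternative settings). By edgeR 2 (33.3%) had an unadjusted p under 0.05, both higher, against 1.52% of all genes. These were *Prg2* and *Epx*, with an unadjusted p of 0.0014 and 0.021 by DESeq2 but of 0.264 and 0.0897 by limma-voom. The part of such cells in the differences between the genotypes was not tested. In the neutrophil sum *Il27ra*-/- replicates 2 and 3 lay above the whole *Il27ra*+/- range, replicate 1 within it and replicate 4 below it. The 12 genes of monocytes, macrophages and dendritic cells, with *F13a1* at the highest mean CPM, summed to 635, 394, 526 and 307 CPM in *Il27ra*+/- and to 441, 376, 347 and 203 CPM in *Il27ra*-/-. The groups overlapped, with replicate 4 lowest in both, and of 6 tested members 4 had an estimate below 0 (median −0.42).

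On chromosome 8, within 10 Mb on either side of *Il27ra*, 7 of 121 tested genes (5.79%) had an unadjusted p under 0.05, against 2.84% of all genes and 15 of 703 (2.13%) on the whole chromosome. They were *Il15* and *Tbc1d9* and, named after their values were seen, *Gadd45gip1*, *Podnl1*, *Inpp4b*, *Mylk3* and *Zfp827*. *Inpp4b*, a phosphoinositide phosphatase, was at 4.35, 6.12, 6.75 and 8.4 CPM in *Il27ra*+/- and at 11, 18.8, 12.1 and 12.3 CPM in *Il27ra*-/-, with all *Il27ra*-/- libraries above. *Gadd45gip1*, a protein of the mitochondrial ribosome, was at 82.6, 65.2, 39.7 and 51.2 CPM in *Il27ra*+/- and at 28.2, 39.3, 47.7 and 36.5 CPM in *Il27ra*-/-, with 1 *Il27ra*-/- library in the *Il27ra*+/- range. *Tbc1d9* was at 1.3, 8.75, 1.27 and 3.97 CPM in *Il27ra*+/- and at 0.552, 0, 0 and 1.12 CPM in *Il27ra*-/-. The genotypes lay apart, but the *Il27ra*-/- levels are 6 counts or fewer in each library and those of *Il27ra*+/- replicates 1 and 3 are 3 counts each, so that the separation rests on few counts.

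The same contrast of genotypes was made in HPC-1 after PBS (3 libraries of each genotype) and in LT-HSC after Ang II (4 of each), which share no library with the comparison above. Whether some LT-HSC and HPC-1 libraries come from the same mice is not given in the labels. The sets differ in sex-linked RNA. In LT-HSC after Ang II, replicates 3 and 4 of both genotypes had high *Xist* (3530 to 4370 CPM) and *Ddx3y* at 0. In HPC-1 this held for replicate 4 alone after Ang II and for replicate 3 alone after PBS. After PBS, *Xist* in replicate 3 was at 3560 CPM in *Il27ra*+/- and at 4150 CPM in *Il27ra*-/-, with *Ddx3y* at 0 in both. After PBS, 151 genes (1.14%) had an unadjusted p under 0.05, and in LT-HSC 549 of 18013 (3.05%). Tests of the difference itself called 0 genes (0%) for the interaction of genotype with the infused agent in HPC-1 and 0 (0%) for that with cell type after Ang II, by edgeR. At an unadjusted p under 0.05 they gave 169 (1.28%) and 529 of 18013 (2.94%). Of the 375 genes, 218 had the same sign after PBS and 237 in LT-HSC, and 8 and 24 of them had an unadjusted p under 0.05 with that sign there, against 2 and 3 with the opposite sign. The 24 include *Camp*, *Ngp*, *S100a8* and *Mmp9*, for which 1 LT-HSC library stood far apart. In *Il27ra*-/- LT-HSC replicate 2 they were at 282, 2110, 580 and 278 CPM, and in the other 7 LT-HSC libraries at most at 16.5 CPM. Across the 2227 genes with a mean of 100 CPM or more the log2 fold changes after Ang II and after PBS correlated with a Pearson r of 0.31 and a Spearman rho of 0.23, and with those in LT-HSC with an r of 0.053 and a rho of 0.23. Across all 13199 genes the r was 0.084 with PBS and, over 13198 genes, 0.092 with LT-HSC, where genes are not independent replicates.

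*H2-Q6* and *Tbc1d9* had an unadjusted p under 0.05 and a lower estimate in *Il27ra*-/- in all 3 settings. After PBS *H2-Q6* was at 189, 243 and 148 CPM in *Il27ra*+/- and at 123, 146 and 104 CPM in *Il27ra*-/- HPC-1. In LT-HSC after Ang II it was at 285, 316, 301 and 301 CPM and at 165, 120, 201 and 177 CPM. Both sets of groups lay apart, with log2 fold changes of −0.63 (unadjusted p = 0.00805 by edgeR) and −0.86 (unadjusted p = 2.47e-05 by edgeR). *Tbc1d9* was at 4.45, 4.08 and 3.13 CPM after PBS in *Il27ra*+/- and at 0.619, 0 and 0.209 CPM in *Il27ra*-/- HPC-1, and at 6.6 to 13.1 CPM and 0 to 3.99 CPM in LT-HSC after Ang II. *H2-Ab1* had log2 fold changes of −0.71 after PBS and −0.79 in LT-HSC, *H2-K1* of −0.28 and −0.38, and *Gbp3* of −0.34 and −0.51. After PBS *H2-Ab1* was at 17.2, 25.1 and 18.2 CPM in *Il27ra*+/- and at 13, 9.79 and 14 CPM in *Il27ra*-/-, which did not overlap, whereas in LT-HSC it was at 9.43, 34.1, 14.1 and 34.8 CPM and at 12.6, 18.1, 10 and 13.4 CPM, which overlapped. For *Tec* the values were −0.26 and −0.36, with levels after PBS of 55.3, 50.5 and 48.2 CPM and of 45.8, 40.9 and 42 CPM. *Guf1* and *Ccna2* had estimates of −0.09 and −0.09 after PBS and of −0.09 and 0.36 in LT-HSC. *Ccna2* was at 136 CPM in *Il27ra*-/- LT-HSC replicate 2 and at 37.4 to 71.6 CPM in the other LT-HSC libraries of both genotypes after Ang II.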

How the data were processed

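The authors sorted 5000 cells a sample and sequenced total RNA in paired-end reads of 75 bases, keeping samples with at least 20% exonic reads. The deposited values are expected counts, which the authors made with RSEM (the submitters' notes name Bowtie2 and RSEM 1.2.31, and the paper STAR on mm10), given as whole numbers for 38887 genes. Depth was taken as each library's summed counts, and 3 counts were worth 0.4748 to 1.32 CPM.

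Here genes were filtered with filterByExpr, normalized by TMM and fitted in edgeR 4.0.16 (R 4.3.3; quasi-likelihood, robust) with the 19 libraries of 6 HPC-1 groups in 1 model without intercept. p-values were adjusted by Benjamini-Hochberg over all genes tested, and 0.05 was the threshold. DESeq2 1.42.0, limma-voom (limma 3.58.1), other normalizations, filters, sets of libraries and designs were the alternatives. LT-HSC were fitted with HPC-1 for the interaction with cell type. The fits were tested on simulated data.

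Genes named in the text were drawn from *Il27ra* and its JAK-STAT list, the genes that the study measured by Q-RT-PCR, *Cdkn1a* and *Trp53*. Further sources were up to 10 genes of smallest p in each direction whose groups did not overlap and, from each gene list, up to 4 members at an unadjusted p under 0.05 and the 2 of highest mean. Members and lists were chosen with earlier results of these data known. Other named genes were picked from their lists or chromosomal neighborhood after their values were seen.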

Additional observations from a re-analysis of the deposited data

Results flagged for a closer look

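In groups of 4 libraries, a value was singled out when it lay far from the other 3 compared with their spread. Chance alone singles out about 1 in 20 groups, and here it was 25 of 327 (7.65%), of which 8 were replicate 4 and 7 *Il27ra*+/- replicate 3.

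The total of *Il27ra*+/- replicate 4 was 6318379 counts, against 2272026 to 2618919 in the others. *Xist* was at 3380 CPM in *Il27ra*+/- replicate 4 and 3630 CPM in *Il27ra*-/- replicate 4, against at most 5.65 CPM in the others, and the summed sex-linked genes were at the same 3380 and 3630 CPM.

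In *Il27ra*+/- replicate 3 the high values were *Ptpn2* (59.9 CPM, others at most 42.8), *Il15* (30.4, others at most 13.1), *Dtx3l* (288, others at most 211), *Cpa3* (59.1, others at most 35.6), *Mcpt8* (7.6, others at most 3.06), *Mmp9* (0.422, others 0) and the summed renin-angiotensin genes (260, others at most 216). Replicate 1 of *Il27ra*+/- was high in *Slc9a3r1* (127, others at most 107) and low in *Srebf2* (104, others at least 190) and in the summed NF-kB and inflammatory receptor genes (501, others at least 621). The summed megakaryocyte genes were high in *Il27ra*+/- replicate 4 (155, others at most 116).

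In *Il27ra*-/- replicate 3 *Mcm6* (767, others at most 587), *Mcm3* (640, others at most 448) and *S100a8* (21.4, others at most 1.38) were high and *Meis1* (189, others at least 236) was low. *Prg2* (12.3, others at most 1.92) and *Inpp4b* (18.8, others at most 12.3) were high in *Il27ra*-/- replicate 2. *Csf3r* (232, others at most 156) and *Slc9a3r1* (101, others at most 74.8) were high in *Il27ra*-/- replicate 4, and *Trp53* (135, others at least 145) was low in *Il27ra*-/- replicate 1. The causes were not tested.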

How the results depend on the processing

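No gene passed the adjusted threshold under any alternative but 1. With no filter beyond a total count of 1, edgeR called 1 gene, *Gm28048*, whose counts were 16, 0, 134 and 0 in *Il27ra*+/- and 0 in all *Il27ra*-/- libraries. That filter also gave 1030 genes at an unadjusted p under 0.05 in place of 375, and 2 and 111 called genes in place of 0 and 0 for the interactions with agent and cell type. The 111 are led by *Mpo*, which in LT-HSC was at 1110 CPM in *Il27ra*-/- replicate 2 and at 0.664 to 20.1 CPM in the other 7 libraries. The unadjusted count was 615 by limma-voom with sample weights, 235 with only the 8 libraries in the model and 187 when *Il27ra*+/- replicates 1 and 3 were omitted, an alternative added after seeing the data. It ranged from 160 (without *Il27ra*-/- replicate 2) to 668 (without *Il27ra*+/- replicate 4) when single libraries were left out. The study's DESeq2 model included mouse gender as a factor, which the main fit here lacks. With the level of Y-linked genes as a covariate the count was 467, and 349 of the 375 genes were among them. The main model also holds Ang II libraries of mice with intact *Il27ra*, of which replicate 3 lay far from the other libraries (first principal component 148, others at most 5.18). Without that replicate, an alternative added after seeing the data, the count was 508. The cause of these moves was not tested.

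With the replicate number as a block the unadjusted count was 388, of which 290 were among the 375, and no gene was called. Deviations of libraries with the same number correlated with r of 0.012, −0.019, −0.075 and 0.45, so the numbers were not taken as pairs. The block also called 0 genes for both interactions.

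Of the 375 genes, 345 also had an unadjusted p under 0.05 by DESeq2, 154 by limma-voom, 117 without *Il27ra*-/- replicate 2 and 62 when *Il27ra*+/- replicates 1 and 3 were omitted. Of 78 named genes at an unadjusted p of 0.05 or more, 43 turned direction in at least 1 alternative. Limits are the 4 libraries a group, counts of the whole *Il27ra* gene without its exons, no cell-level data and no statement of gender, batch or mouse for each library.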

Other observations

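Further gene lists are described here by their estimates. Of 15 tested growth factor receptor genes 10 had an estimate below 0 (median log2 fold change −0.10), of 17 NF-kB and inflammatory receptor genes 10 (−0.03), of 14 adhesion and homing genes 7 (0.02) and of 8 heat shock genes 4 (−0.04). Of 9 loci with ribosomal RNA or other abundant noncoding reads 7 had an estimate below 0 (median −0.29). The 13 tested erythroid genes had 10 estimates above 0 (median 0.42). Their CPM, with the transferrin receptor gene *Tfrc* at the highest mean, summed to 247, 550, 451 and 341 in *Il27ra*+/- and to 291, 897, 500 and 547 in *Il27ra*-/-. *Il27ra*-/- replicate 2 was above all others, and the rest overlapped. The 12 tested genes of intestinal epithelium, most of them near 0 CPM, had 8 estimates below 0 and 3 above (median −0.37). All 18 genes of the list summed to 62.2, 41.1, 67.5 and 38.5 CPM in *Il27ra*+/- and to 36.4, 40, 36.4 and 39.9 CPM in *Il27ra*-/-, with the keratin gene *Krt18* at the highest mean. *Il27ra*+/- replicates 1 and 3 were high, and replicates 2 and 4 lay near *Il27ra*-/-.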
